A study of Homo sapiens with 16 samples.

Results

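The comparison described here set 5 tumours of mice given exosomes loaded with the human MYC siRNA numbered 2 (Myc2) against 4 tumours of mice given exosomes with the scramble siRNA numbered 2 (Scr2), 9 of the 16 samples in the series. All 9 tumours were xenografts of U87, an established human glioblastoma cell line, grown in nude mice, which lack mature T cells. The exosomes, small vesicles that cells release, came from mesenchymal stromal cells (labelled MSC) in both groups, so that both groups had received vesicles and a small RNA. The labels give the mice as WT and say that tumours were taken at euthanasia. The dose and schedule were stated for the other pair of agents only, and no age was given for these mice. The members of the comparison were the 14208 genes, of 18168 in the authors' table for this experiment, that reached 1 CPM, a read count scaled to a common library total, in at least 4 libraries. All values are levels or differences in log2 CPM, and each difference is the Myc2 mean minus the Scr2 mean with its standard error (SE). A difference of 1 is a doubling. Each library came from its own mouse according to the titles, so the tests measure the spread between mice. The number that opens each title is lower for every Myc2 library than for any Scr2 library. What these numbers stand for was not given, and a difference tied to their order cannot be told apart from the siRNA.

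MYC encodes a transcription factor that pairs with MAX and binds E-box sequences, where the pair drives genes of ribosome production, nucleotide synthesis and the cell cycle. MNT, MXI1 and the MXD proteins also pair with MAX and repress many of the same genes. An siRNA directs the RNA interference machinery to cut a matching messenger RNA, so that the message of the target is its closest readout. Glioblastoma cells can take up a mesenchymal state, governed by factors such as CEBPB and STAT3, which is often found near poorly oxygenated or inflamed parts of a tumour.

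Limma called 0 of 14208 genes (0%) at an adjusted p under 0.05, and the smallest adjusted p was 0.370. Every gene below is therefore given by its values, as higher or lower in these tumours, and none passed the test across all genes. At an unadjusted p under 0.05, limma counted 995 genes that were higher in Myc2 (7% of those tested) and 903 that were lower (6.36%). The groups did not overlap for 199 genes with Myc2 higher (1.4%) and 229 with Myc2 lower (1.61%). Of all genes tested, 48.2% had a difference above 0 and the median difference was -0.02. These figures are the background for the counts of list members over all 9 libraries. Without Scr2 replicates 1 and 4, described next, the shares of all genes at an unadjusted p under 0.05 were 1.96% higher and 1.46% lower, and without Myc2 replicate 3 they were 7.14% and 6.26%. After each library was re-centred on a set of reference genes, 2.1% were lower at that p. The gene lists were written with earlier results of these data known, so their counts describe the lists and test nothing. Some genes belong to more than 1 list, so the lists are not independent of each other.

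Scr2 replicates 1 and 4 stood apart from the other libraries. On the first principal component, which held 43.8% of the variance, they lay at 63.4 and 94.4 while the other 7 libraries lay between -47.6 and -2.74. Myc2 replicate 3 lay at 53.1 on the second component, which held 15.0%. Library sizes, estimated from the spacing of the lowest values, ran from 15.2 to 23.2 M reads, apart from Scr2 replicate 4 at 10.1 and Myc2 replicate 3 at 31.0. The values were normalized by rank, which may have altered that spacing, so these sizes are uncertain. Values without Scr2 replicates 1 and 4 are given for most lists and for many genes, in particular where they differ by more than 1.5 times from those over all 9 libraries.

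The siRNA target did not have a lower message in the tumours labelled Myc2. MYC stood at 5.79, 5.85, 5.56, 6.17 and 5.40 in Myc2 replicates 1 to 5, and at 5.33, 5.14, 5.56 and 4.70 in Scr2 replicates 1 to 4. Myc2 replicate 5 was the lowest of its group and lay below Scr2 replicate 3, so the groups overlapped. The difference was 0.57 ± 0.21, in the direction opposite to that of a knockdown (exact two-sided permutation p = 0.0397, where the smallest that the group sizes allow is 0.00794). The difference was 0.40 when Scr2 replicates 1 and 4 were left out. The groups are named as labelled throughout, and each direction below is that of the libraries labelled Myc2.

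The partners and rivals of MYC in the same network were also measured. Of 13 listed genes 11 were tested, 8 of them with a difference above 0, and the median was 0.43, or 0.12 without Scr2 replicates 1 and 4. MXI1, a repressor that competes for MAX, stood at 6.16, 5.72, 3.80, 5.88 and 5.25 in Myc2 and at 4.69, 4.43, 3.18 and 3.33 in Scr2. Myc2 replicate 3 alone fell within the Scr2 range, and the difference was 1.45 ± 0.47. MNT, another such repressor, was higher by 1.14 ± 0.36, which became 0.40 without Scr2 replicates 1 and 4. MXD3, a repressor expressed in dividing cells, was lower in Myc2. It stood between 5.53 and 6.18 in Myc2 and between 6.20 and 6.62 in Scr2, with no overlap and a difference of -0.48 ± 0.18, or -0.30 after adjustment for transcript length.

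MAX itself differed by 0.03, MXD1 by 0.24 and MLXIPL, a glucose-sensing partner of MLX, by 0.56. Several network members had a sign that depended on how the values were treated. MLX (-0.03) and MXD4 (-0.05) were above 0 after re-centring on reference genes, at 0.16 and 0.14. MLXIP (0.65) and MGA (0.43) were at -0.01 and -0.05 without Scr2 replicates 1 and 4. Among 23 genes that MYC is known to activate, 9 were above 0 and the median was -0.09, which turned to 0.10 after re-centring and to 0.03 after adjustment for transcript length. At an unadjusted p under 0.05, 4 were lower and 0 higher, against 6.36% and 7% of all genes. Without Scr2 replicates 1 and 4 the count was 0 in either direction. ODC1, the first enzyme of polyamine synthesis, differed by -0.70 ± 0.25, and BYSL, a ribosome assembly factor, differed by -0.67 ± 0.23 (-0.39 without Scr2 replicates 1 and 4). NCL, the nucleolar protein nucleolin, differed by 0.16 ± 0.17, with -0.07 without Scr2 replicates 1 and 4. The 38 nucleolar and ribosome assembly genes had a median of -0.15 with 11 above 0, and that median was 0.03 after re-centring. Of these 38 genes, 5 were lower and 0 higher at that p, and 0 in either direction without Scr2 replicates 1 and 4.

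**Figure D1:**
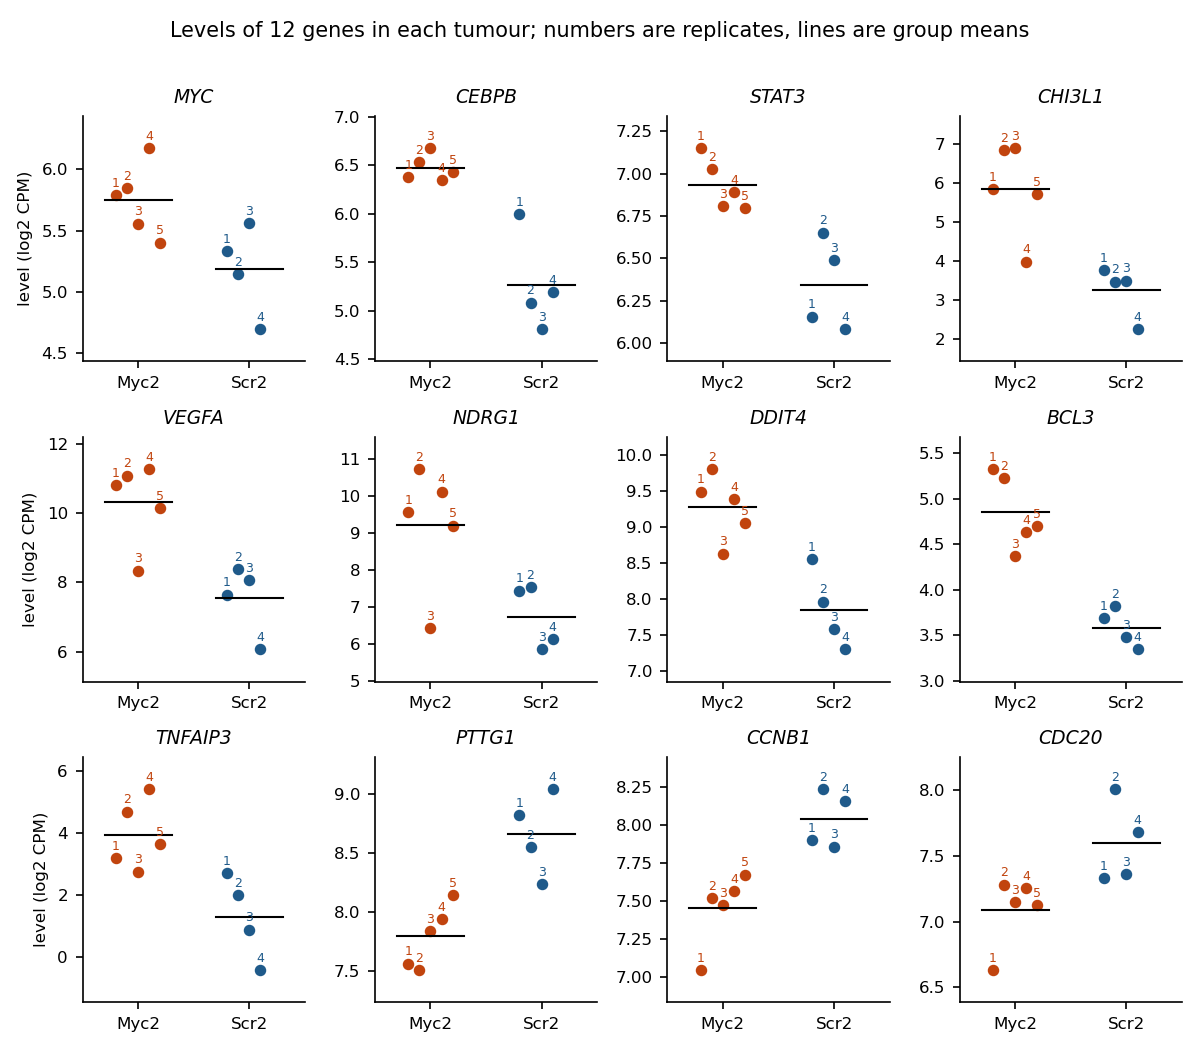
Level (log2 CPM) of 12 genes in each of the 9 tumours, with Myc2 on the left and Scr2 on the right of each panel. Points are libraries numbered by replicate and lines are group means. MYC lies between 5.40 and 6.17 in Myc2 and between 4.70 and 5.56 in Scr2, and Myc2 replicate 3 is the lowest of its group for VEGFA and NDRG1.

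The hypoxia response was the list with the most members higher in Myc2. When oxygen falls, the HIF1A and EPAS1 proteins escape degradation, pair with ARNT and bind short elements with the letters ACGTG or GCGTG, and so turn on genes of glycolysis, blood vessel growth and pH control. Of 40 tested members 39 had a difference above 0, and the exception was PDK3, a kinase that holds back pyruvate dehydrogenase, at -0.39. At an unadjusted p under 0.05, 26 members were higher and 0 lower, and for 5 the groups did not overlap. The median difference was 0.97 against -0.02 over all genes. It was 1.05 without Scr2 replicates 1 and 4, with 16 members higher at that p, and 1.03 after adjustment for transcript length.

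Promoter windows of 4 list members are shown because they carry the letters named above, which are in capitals. They are from RefSeq on GRCh38.p14, run 5′ to 3′ along the gene's strand and lie upstream of the transcription start.
DDIT4 (chr10:72273794-72273883, plus strand): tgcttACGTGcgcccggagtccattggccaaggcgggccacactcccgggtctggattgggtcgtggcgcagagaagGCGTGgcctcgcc
ADM (chr11:10304933-10305012, plus strand): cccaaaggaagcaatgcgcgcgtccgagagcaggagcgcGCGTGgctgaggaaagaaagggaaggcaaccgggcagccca
EPAS1 (chr2:46297252-46297331, plus strand): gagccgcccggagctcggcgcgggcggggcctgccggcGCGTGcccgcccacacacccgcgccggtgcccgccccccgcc
PFKFB4 (chr3:48556924-48557003, minus strand): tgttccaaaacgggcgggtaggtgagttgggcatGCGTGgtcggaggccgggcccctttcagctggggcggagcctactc
These letters are common: on either strand, ACGTG or GCGTG occurred in 48.4% of all 35116 promoters of the same length. A promoter was found for 75% of the tested list members, too few for a share over the list.

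DDIT4, which restrains mTORC1 when oxygen or energy is short, stood at 9.49, 9.80, 8.63, 9.38 and 9.05 in Myc2 and at 8.55, 7.96, 7.58 and 7.30 in Scr2. Every Myc2 library was above every Scr2 library, Myc2 replicate 3 by the least, and the difference was 1.42 ± 0.29. EPAS1, which encodes the oxygen-regulated factor HIF2-alpha, stood at 7.29 to 8.14 in Myc2 (replicate 5 the lowest, replicate 4 the highest) and at 7.12, 6.82, 6.52 and 5.80 in Scr2. The groups again did not overlap, with a difference of 1.20 ± 0.27. HIF1A differed by 0.53 ± 0.26 (0.15 without Scr2 replicates 1 and 4), though this factor is controlled mainly at the protein level. The histone demethylases KDM3A and KDM4B, both induced by hypoxia, were higher by 1.07 ± 0.26 and 0.90 ± 0.21, also without overlap.

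Among secreted and surface proteins, VEGFA, ADM and CA9 were lowest of their group in Myc2 replicate 3, and STC2 was lowest in Myc2 replicate 5. VEGFA, the main growth factor for blood vessels, stood at 10.82, 11.09, 8.34, 11.28 and 10.15 in Myc2 and at 7.64, 8.39, 8.06 and 6.06 in Scr2. The groups overlapped only through Myc2 replicate 3, which lay below Scr2 replicate 2, and the 2.80 ± 0.61 difference corresponds to 6.96-fold. ADM, the vessel-dilating peptide adrenomedullin, stood at 7.69, 8.34, 5.37, 8.27 and 7.80 in Myc2 and at 6.50, 6.47, 4.76 and 5.55 in Scr2. Here too Myc2 replicate 3 lay within the Scr2 range, and the difference was 1.68 ± 0.58. STC2, a secreted glycoprotein, stood at 2.64, 5.71, 3.57, 3.34 and 1.32 in Myc2 and at 0.76, 0.64, -2.66 and -1.30 in Scr2, with no overlap and a difference of 3.95 ± 0.88. CA9, a surface carbonic anhydrase that acidifies the surroundings of hypoxic cells, stood at 8.28, 8.55, 4.58, 7.75 and 7.60 against 6.69, 6.38, 5.64 and 5.90. Myc2 replicate 3 was the lowest of all 9 libraries for this gene, and the difference was 1.20 ± 0.67, or 1.89 without that library.

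Genes of glucose handling within the same response followed this order. SLC2A3, a high-affinity glucose transporter, stood at 7.26, 7.70, 5.75, 7.90 and 7.23 in Myc2 and at 6.02, 5.82, 5.48 and 5.16 in Scr2, a difference of 1.55 ± 0.38. HK2, the hexokinase that traps glucose in the cell, stood at 6.47, 7.09, 4.65, 6.84 and 6.11 against 4.72, 4.24, 4.79 and 3.65, a difference of 1.88 ± 0.44. For both genes Myc2 replicate 3 alone overlapped with Scr2. The transporter SLC2A1 was higher by 1.68 ± 0.56, the glycolysis regulators PFKFB3 and PFKFB4 by 1.34 ± 0.39 and 1.00 ± 0.38, and the lactate exporter SLC16A3 by 0.89 ± 0.28. The abundant enzymes LDHA and GAPDH differed by 0.04 ± 0.20 and -0.10 ± 0.22, within the spread between mice, and GAPDH was above 0 after re-centring (0.09). Of 22 glycolysis genes 17 were above 0, 9 were higher at an unadjusted p under 0.05 and 0 lower, with a median of 0.46 (0.41 without Scr2 replicates 1 and 4).

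Across the list, Myc2 replicate 3 differed from the rest of its group. It was the lowest Myc2 library for 35 of 40 members and for 19 of 22 glycolysis genes. The number of members above the highest Scr2 library was 35, 34, 6, 35 and 30 in Myc2 replicates 1 to 5. The mean level of the list was 5.49 in Myc2 replicate 3 and between 6.48 and 7.08 in the other 4 Myc2 libraries, against 5.94, 5.60, 5.34 and 5.14 in Scr2. Leaving out a Myc2 library that is low for these genes raises their differences by construction, so the fit without it is a description. Without Myc2 replicate 3 the median of the list was 1.26, with 33 members higher at an unadjusted p under 0.05. The median of the glycolysis genes was 0.61, with 14 higher. In the same fit, limma called 9 genes at an adjusted p under 0.05, from 0.0418 to 0.0440, and 5 of them are list members. These were SLC2A3 at 1.90, NDRG1 at 3.17, VEGFA at 3.30, BHLHE40 at 1.71 and HK2 at 2.28. NDRG1, a stress-responsive differentiation gene, stood at 9.57, 10.74, 6.43, 10.12 and 9.20 in Myc2 and at 7.45, 7.53, 5.85 and 6.13 in Scr2. BHLHE40, a transcriptional repressor, stood at 7.42, 7.90, 5.92, 8.11 and 7.40 against 6.51, 5.87, 5.84 and 5.75. The other 4 were NRN1, FAM20C and SLC38A4, which were higher by 1.18, 1.71 and 2.92, and the pseudogene PMS2P10, which differed by -4.92. SLC38A4 and PMS2P10 were low, at no more than 1.45 and 1.86 in any library, so the size of their differences is uncertain.

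**Figure D2:**
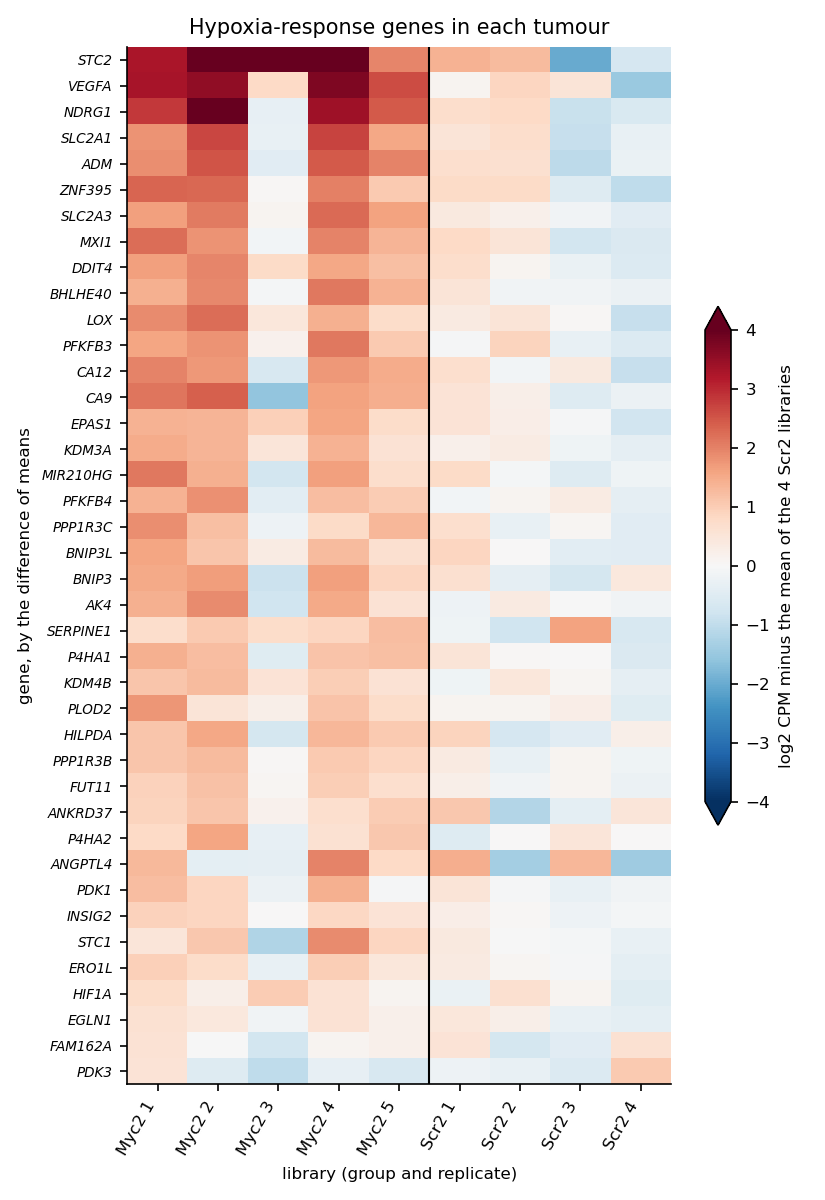
Level of each hypoxia-response gene in each tumour, as log2 CPM minus the mean of the 4 Scr2 libraries. Columns are libraries, rows are the 40 tested genes ordered by the difference of means, and red is higher. Myc2 replicates 1, 2, 4 and 5 are red for most genes, while Myc2 replicate 3 exceeds the highest Scr2 library for 6 of the 40.

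Targets and regulators of NF-kB, the factor that TNF and interleukin 1 activate, were higher in all 5 Myc2 tumours by the mean of the list. NF-kB is held in the cytoplasm by inhibitors such as NFKBIA, and many of its targets feed back to shut it off. Of 24 tested members 21 had a difference above 0, 13 were higher at an unadjusted p under 0.05 and 0 lower, and for 4 the groups did not overlap. The median was 0.78, or 0.70 without Scr2 replicates 1 and 4, with 12 members then higher at that p. The mean level was 4.75, 5.31, 4.73, 5.20 and 4.74 in Myc2 and 4.45, 4.18, 3.94 and 3.80 in Scr2, so that the groups did not overlap and Myc2 replicate 3 lay with its group.

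The promoters of 3 members are shown with matches to the NF-kB consensus in capitals, also from RefSeq on GRCh38.p14 and along the gene's strand.
TNFAIP3 (chr6:137867159-137867238, plus strand): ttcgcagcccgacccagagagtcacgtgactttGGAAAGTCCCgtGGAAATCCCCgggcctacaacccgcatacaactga
BIRC3 (chr11:102317279-102317368, plus strand): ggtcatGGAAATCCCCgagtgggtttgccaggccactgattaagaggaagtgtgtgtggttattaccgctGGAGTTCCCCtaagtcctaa
NFKBIA (chr14:35404790-35404869, minus strand): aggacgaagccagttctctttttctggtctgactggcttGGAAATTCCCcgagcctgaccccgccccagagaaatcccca
The consensus, searched on both strands, was found in 17 of 37 promoters (45.9%) of the 21 members with a promoter, and in 5.91% of all promoters. A match describes the sequence and shows no binding, and the list was made of known targets.

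BCL3, a nuclear co-regulator of NF-kB, stood at 5.32, 5.22, 4.36, 4.63 and 4.70 in Myc2 and at 3.68, 3.82, 3.48 and 3.34 in Scr2. Its groups did not overlap, with a difference of 1.27 ± 0.23, and it was among the genes with the smallest p. TNFAIP3, which encodes the feedback inhibitor A20, stood at 3.18, 4.68, 2.74, 5.39 and 3.63 against 2.69, 1.98, 0.88 and -0.42. All Myc2 values were above all Scr2 values, by a small margin for Myc2 replicate 3, and the difference was 2.64 ± 0.66. TRAF1, a signalling adaptor that NF-kB induces, stood at 5.98, 5.89, 5.54, 5.51 and 5.79 against 4.92, 5.21, 5.45 and 4.87, a difference of 0.63 ± 0.18 without overlap (0.41 without Scr2 replicates 1 and 4). TNIP1, a partner of A20, was higher by 0.71 ± 0.24, also without overlap. The survival factor BIRC3 was higher by 1.62 ± 0.45, the superoxide dismutase SOD2 by 0.88 ± 0.25 and NFKBIA by 0.68 ± 0.24, with overlap. NFKBIA was at 1.05 without Scr2 replicates 1 and 4, and at 0.45 without Scr2 replicate 3. The messages of the NF-kB subunits themselves differed less, RELA by 0.00 ± 0.13 and NFKB1 by 0.15 ± 0.18. RELA was at 0.19 after re-centring.

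Secreted inflammatory factors were uneven between the tumours. Of 13 tested cytokines and chemokines 12 were above 0 and 5 were higher at an unadjusted p under 0.05, with a median of 1.04 (1.33 without Scr2 replicates 1 and 4). IL8, a chemokine for neutrophils, stood at 4.99, 6.04, 1.96, 6.79 and 5.31 in Myc2 and at 5.78, 1.70, 1.45 and 0.01 in Scr2. Scr2 replicate 1 was as high as the Myc2 libraries and Myc2 replicate 3 was near the low Scr2 libraries, so that the difference of 2.78 ± 1.13 came with wide overlap. The chemokine CXCL3 was higher by 1.91 ± 0.65, the macrophage growth factor CSF1 by 1.20 ± 0.37 and LIF, a cytokine of the IL6 family, by 0.91 ± 0.34. The last pair were at 0.54 and 0.34 without Scr2 replicates 1 and 4. The table holds human genes only, and host cytokines were not analysed here.

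Regulators of the mesenchymal state were higher in all 5 Myc2 tumours by the mean of the list, which ran from 5.97 to 6.37 in Myc2 and from 5.25 to 5.78 in Scr2. Of 22 tested members 21 had a difference above 0, 6 were higher at an unadjusted p under 0.05 and 0 lower, and for 3 the groups did not overlap. The median was 0.53, or 0.29 without Scr2 replicates 1 and 4. CEBPB, a bZIP factor that governs this state, stood at 6.38, 6.54, 6.68, 6.35 and 6.43 in Myc2 and at 5.99, 5.08, 4.81 and 5.19 in Scr2. The 5 Myc2 tumours lay close together and above every Scr2 tumour, of which replicate 1 was nearest, and the difference was 1.21 ± 0.22. Without Scr2 replicates 1 and 4, limma called CEBPB (1.53, adjusted p = 0.0236) and the gene known by the clone name AC020663.1 (6.06, adjusted p = 0.0145), 2 genes in all. For both genes the left-out libraries held the highest Scr2 values. Leaving them out raises the difference by construction, so this fit is a description. Over all 9 libraries, limma gave CEBPB an adjusted p of 0.370. AC020663.1 was low, at 0.67 to 2.17 in Myc2 and at -3.77 and -5.16 in Scr2 replicates 2 and 3. In the left-out Scr2 replicate 1 it stood at 2.61, above every Myc2 library. Its difference over all 9 libraries was 3.38 (limma adjusted p = 0.370).

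STAT3, the signal transducer of the IL6 family, stood at 7.15, 7.03, 6.81, 6.89 and 6.80 in Myc2 and at 6.16, 6.65, 6.49 and 6.08 in Scr2, a difference of 0.59 ± 0.17 without overlap that was 0.36 without Scr2 replicates 1 and 4. SNAI2, a repressor of epithelial genes, stood at 7.25, 6.37, 6.24, 6.80 and 6.48 against 5.87, 5.89, 5.33 and 5.86, a difference of 0.89 ± 0.22 without overlap. OSMR, the oncostatin M receptor that signals to STAT3, stood at 6.54, 6.29, 6.36, 6.09 and 5.58 against 5.07, 5.60, 5.13 and 4.82. Only Myc2 replicate 5 and Scr2 replicate 2 overlapped for OSMR, by a narrow margin, and the difference was 1.01 ± 0.22. Among 14 genes of oncostatin M and IL6 signalling 11 were above 0 and 5 were higher at an unadjusted p under 0.05, with a median of 0.42 (0.13 without Scr2 replicates 1 and 4).

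The structural and secreted genes of the mesenchymal state did not all follow their regulators. Of 32 tested effector genes 21 were above 0, 6 were higher and 3 lower at an unadjusted p under 0.05, and the median was 0.26, or 0.02 without Scr2 replicates 1 and 4. The mean level of the list ran from 7.87 to 8.02 in Myc2 and from 7.52 to 7.77 in Scr2, without overlap. CHI3L1, the secreted protein YKL-40, stood at 5.84, 6.84, 6.89, 3.98 and 5.71 in Myc2 and at 3.76, 3.46, 3.49 and 2.25 in Scr2. Myc2 replicate 4 lay just above the Scr2 range and the other 4 well above it, with a difference of 2.61 ± 0.54. The interleukin 1 receptor IL1R1 was higher by 0.94 ± 0.25 without overlap, and the urokinase PLAU by 0.92 ± 0.26 (0.54 without Scr2 replicates 1 and 4).

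LGALS1, a galectin abundant in mesenchymal glioma, went the other way, at 10.95, 10.88, 10.61, 10.74 and 11.09 in Myc2 and 11.91, 11.34, 11.28 and 12.15 in Scr2. Its groups did not overlap, the difference was -0.82 ± 0.21, and it was -0.46 without Scr2 replicates 1 and 4 and -0.36 after the length adjustment. CASP1, the inflammasome protease, differed by -0.86 ± 0.30 without overlap, with -0.48 and -0.55 under the same alternatives. CD44, a surface receptor for hyaluronan, differed by 0.42 ± 0.25 (0.16 without those libraries) and the filament protein VIM by 0.13 ± 0.18, within the spread between mice. VIM stood between 12.25 and 12.56 in Myc2 and between 11.85 and 12.56 in Scr2. NES (0.01 ± 0.41, or -0.62 without those libraries), a progenitor filament, and GFAP (0.00 ± 0.34), the astrocyte filament, showed no difference beyond that spread. SOX2 and OLIG2, factors of stem-like and proneural glioma cells, did not reach the level required for testing. Of 21 listed proneural and progenitor genes 8 were tested, with 4 above 0 and a median of 0.01 (-0.16 without Scr2 replicates 1 and 4).

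Growth factor receptors and their feedback genes had 22 of 23 tested members above 0, with 4 higher at an unadjusted p under 0.05 and a median of 0.49 (0.16 without Scr2 replicates 1 and 4). ERRFI1, a feedback inhibitor of the EGF receptor, stood at 9.39, 9.27, 8.80, 9.72 and 8.33 in Myc2 and between 7.04 and 8.25 in Scr2. The groups did not overlap, with Myc2 replicate 5 just above Scr2 replicate 1, and the difference was 1.50 ± 0.33. TGFA, a ligand of the same receptor, was higher by 1.31 ± 0.35, and EGFR itself by 0.58 ± 0.30 (0.14 without Scr2 replicates 1 and 4). Of 25 immediate early genes, which respond within minutes to growth signals, 22 were above 0, 6 were higher at that p and for 3 the groups did not overlap. These 3 were EGR2 (1.41 ± 0.34), JUN (0.84 ± 0.23) and JUNB (0.50 ± 0.16), and the median of the list was 0.47. JUN was at 0.50 and the median at 0.35 without Scr2 replicates 1 and 4.

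Complement genes, parts of the blood cascade that marks cells for clearance and that tumour cells can make themselves, had a mean level between 4.57 and 5.45 in Myc2 and between 3.77 and 4.36 in Scr2, without overlap. Single genes were less even. Of 15 tested members 11 were above 0, 7 were higher at an unadjusted p under 0.05 and 0 lower, and the median was 0.52. The median was 0.58 without Scr2 replicates 1 and 4, with 2 members higher at that p. C3, the central component, stood at 5.21, 8.53, 8.59, 4.55 and 4.70 in Myc2 and at 3.28, 6.51, -0.56 and 4.02 in Scr2. Myc2 replicates 2 and 3 were far above the rest, the other 3 lay below Scr2 replicate 2, and the difference was 3.00 ± 1.30, or 1.71 without Scr2 replicate 3. C1S, the protease that starts the classical cascade, stood at 5.61, 5.14, 4.60, 3.35 and 3.53 against 3.46, 3.17, 3.22 and 1.97, a difference of 1.49 ± 0.48. C1RL, a related protease, was higher by 0.96 ± 0.28 without overlap. C4A and C4B, higher by 1.76 ± 0.54 and 2.61 ± 0.74, are nearly identical in sequence, so reads may have been divided between them. C4A was at 0.99 without Scr2 replicates 1 and 4.

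**Figure D3:**
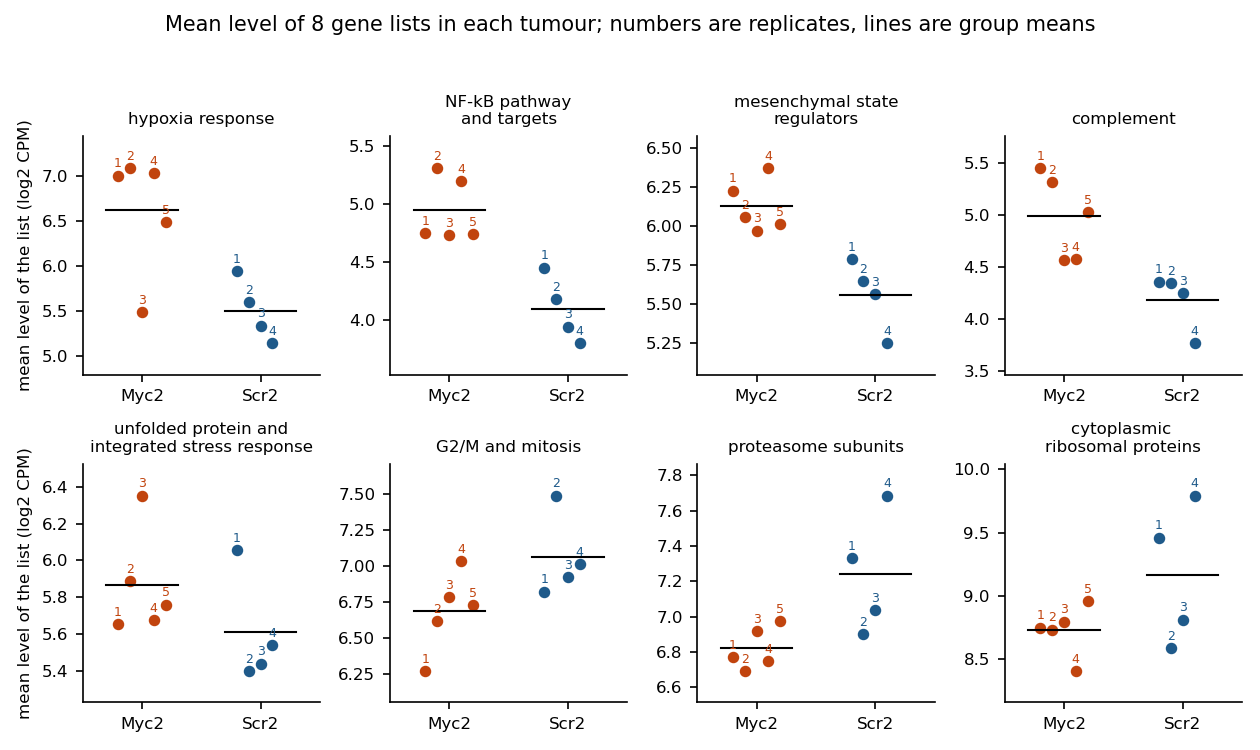
Mean level (log2 CPM) of 8 gene lists in each tumour, with Myc2 on the left and Scr2 on the right of each panel. Points are libraries numbered by replicate and lines are group means. Of the 8 lists shown, the NF-kB, mesenchymal regulator and complement lists do not overlap between the groups. Among lists not shown, the same holds for the MYC network, oncostatin M and IL6 signalling and mesenchymal effector genes. Scr2 replicates 1 and 4 are the highest for cytoplasmic ribosomal proteins at 9.46 and 9.79.

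Genes of the unfolded protein and integrated stress responses, which adjust protein synthesis to damage or shortage, showed a small median difference. Of 31 tested members 22 were above 0, 7 were higher at an unadjusted p under 0.05 and 0 lower, and the median was 0.23 (0.34 without Scr2 replicates 1 and 4, with 8 higher). Without Myc2 replicate 3 the median was 0.17, with 10 members higher and 2 lower at that p. The 2 members whose groups did not overlap, CEBPB and DDIT4, are also in the mesenchymal regulator list and the hypoxia list, respectively. ERN1, the endoplasmic reticulum sensor IRE1, stood at 4.29, 4.22, 4.21, 4.32 and 3.50 in Myc2 and at 3.66, 3.25, 3.00 and 2.62 in Scr2, a difference of 0.97 ± 0.26 with overlap. PPP1R15A, which restores translation after stress, was higher by 1.12 ± 0.34, also with overlap. Targets of ATF4, the factor that cells make when amino acids run short, had another order. ASNS, the asparagine synthetase, stood at 4.06, 4.32, 6.93, 4.03 and 4.42 in Myc2 and at 5.98, 4.20, 4.30 and 5.11 in Scr2. TRIB3, a pseudokinase, stood at 2.42, 3.54, 5.63, 2.55 and 2.82 against 4.25, 2.50, 2.36 and 3.72. Myc2 replicate 3 and Scr2 replicate 1 were the highest of their groups for both genes, and the differences of -0.15 ± 0.58 and 0.19 ± 0.64 were within the spread between mice. ASNS and TRIB3 were chosen after their values were seen. Both changed sign with the treatment of the data, ASNS to 0.04 after re-centring and 0.50 without Scr2 replicates 1 and 4, TRIB3 to -0.37 without Myc2 replicate 3. In all, Myc2 replicate 3 was the highest Myc2 library for 15 of the 31 members. It was the lowest for 24 of 29 genes of sterol synthesis. By the mean of the lists, it was the lowest of its group for the hypoxia response, at 5.49, and the highest for the stress responses, at 6.35.

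Genes of mitosis were, by the mean of the list, lower in 4 of 5 Myc2 tumours than in any Scr2 tumour. Genes of G2 and mitosis are turned on late in the cycle through CCAAT boxes and CHR elements, TTTGAA or TTCGAA, to which the DREAM complex and B-MYB bind. Of 54 tested G2/M members 48 had a difference below 0, 21 were lower at an unadjusted p under 0.05 and 0 higher, and for 5 the groups did not overlap. The median was -0.37. Without Scr2 replicates 1 and 4 it was -0.54, with 20 members lower at that p. That fit keeps Scr2 replicate 2, the highest library by the mean of the list, at 7.49. Without Scr2 replicate 2 alone the median was -0.25, with 14 members and 1987 of all 14208 genes lower at that p. After re-centring on reference genes it was -0.18, with 8 members lower. That re-centring moved the median of all genes to 0.17, and its offsets were highest in Scr2 replicates 1 and 4. Of 42 genes of G1/S and DNA replication 37 were below 0, 10 were lower at that p and 0 higher, and the median was -0.33 (-0.28 without Scr2 replicates 1 and 4, with 4 members lower). In bulk tumours, a smaller share of dividing cells and less message per dividing cell cannot be told apart.

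The promoters of 4 mitotic genes are shown, with CCAAT boxes and CHR elements in capitals, from RefSeq on GRCh38.p14 and along the gene's strand.
CCNB2 (chr15:59105021-59105130, plus strand): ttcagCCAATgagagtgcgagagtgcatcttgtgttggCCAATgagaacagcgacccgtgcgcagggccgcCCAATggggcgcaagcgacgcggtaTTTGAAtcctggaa
CKS1B (chr1:154974571-154974665, plus strand): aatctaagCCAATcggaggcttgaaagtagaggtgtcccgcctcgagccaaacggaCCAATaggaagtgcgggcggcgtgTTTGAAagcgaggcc
CDC20 (chr1:43358871-43358965, plus strand): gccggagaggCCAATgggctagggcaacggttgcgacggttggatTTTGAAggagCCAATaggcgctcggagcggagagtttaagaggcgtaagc
PTTG1 (chr5:160421745-160421824, plus strand): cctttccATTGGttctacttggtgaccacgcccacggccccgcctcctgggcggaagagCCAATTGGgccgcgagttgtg
In PTTG1 the capitals hold 3 CCAAT boxes counting both strands, 2 of them overlapping, and 0 CHR elements in this window. Over the 46 G2/M members with a promoter, 43 of 56 promoters (76.8%) held CCAAT on either strand, against 34.6% of all promoters. TTTGAA or TTCGAA was found in 39 (69.6%, against 16.4%) and both kinds of element in 33 (58.9%, against 6.38%). The list was made of known mitotic genes, and a match shows no binding.

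PTTG1, the securin that holds sister chromatids together, stood at 7.57, 7.51, 7.84, 7.94 and 8.14 in Myc2 and at 8.82, 8.55, 8.23 and 9.04 in Scr2. The groups did not overlap, with a difference of -0.86 ± 0.20, the smallest p of the list, or -0.49 after the length adjustment. CCNB1, the cyclin that brings cells into mitosis, stood at 7.05, 7.52, 7.47, 7.56 and 7.67 against 7.90, 8.23, 7.85 and 8.16, a difference of -0.58 ± 0.17 without overlap. CCNB2, its close relative, stood at 5.74, 6.09, 6.55, 6.61 and 6.53 against 7.17, 6.96, 6.64 and 7.33, and also did not overlap (-0.72 ± 0.22). CDC20, which activates the anaphase-promoting complex, stood at 6.63, 7.28, 7.15, 7.25 and 7.12 against 7.33 or more in every Scr2 library, a difference of -0.51 ± 0.19 (-0.33 after the length adjustment). Myc2 replicate 1 was the lowest library for CCNB1, CCNB2 and CDC20.

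Other mitotic genes had similar differences. FAM64A, a mitotic regulator, differed by -0.81 ± 0.19 without overlap, CDC25C, the phosphatase that activates the mitotic kinase, by -0.99 ± 0.27 and the kinase partner CKS1B by -0.82 ± 0.28. CKS1B was at -0.29 without Scr2 replicates 1 and 4 and at -0.45 after the length adjustment. CDKN3, a phosphatase of cyclin-dependent kinases, and CENPN, a kinetochore protein, were named by their small p and differed by -0.90 ± 0.22 and -1.13 ± 0.30, both without overlap. They were at -0.51 and -0.59 without Scr2 replicates 1 and 4, and CDKN3 was at -0.54 after the length adjustment. Of the replication genes, TK1, the thymidine kinase, stood between 7.08 and 7.44 in Myc2 and between 7.79 and 8.47 in Scr2 (-0.71 ± 0.18, or -0.40 after the length adjustment). RFC3, part of the clamp loader, differed by -0.66 ± 0.20 without overlap, and the polymerase subunit POLE2 by -0.78 ± 0.26. GINS2, part of the replicative helicase, differed by -1.02 ± 0.37. POLE2 and GINS2 were at -0.41 and -0.31 without Scr2 replicates 1 and 4.

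The usual proliferation markers MKI67 and TOP2A did not show this difference over all 9 libraries, at 0.07 ± 0.46 and -0.07 ± 0.30. They were at -0.78 and -0.54 without Scr2 replicates 1 and 4, and TOP2A was at 0.12 after re-centring. CCND1, the cyclin of G1, differed by 0.51 ± 0.23 (0.30 without those libraries). The cell cycle inhibitor CDKN1A differed by -0.15 ± 0.24, and was at 0.20 without Scr2 replicates 1 and 4. TNFRSF10B, a death receptor, was higher by 0.81 ± 0.21 without overlap.

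The tumours did not share the lower mitotic genes evenly. The number of G2/M members below the lowest Scr2 library was 42, 30, 23, 9 and 20 in Myc2 replicates 1 to 5, and for G1/S it was 31, 24, 20, 2 and 12. The mean level of the G2/M list was 6.27, 6.62, 6.79, 7.04 and 6.73 in Myc2 and 6.82, 7.49, 6.92 and 7.01 in Scr2. Myc2 replicate 1 was thus lowest and Myc2 replicate 4 lay within the Scr2 range. Myc2 replicate 4 was also the Myc2 tumour with the most MYC, at 6.17. Myc2 replicates 2 and 1 came next for MYC, at 5.85 and 5.79, but had the lowest G2/M means, at 6.62 and 6.27. A relation between MYC and these genes across tumours was not tested.

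Ribosomal, respiratory and proteasome genes were lower across nearly whole lists, and the size of these differences depended on Scr2 replicates 1 and 4. Proteasome subunits, described below, kept a lower median without those libraries. Of 78 cytoplasmic ribosomal protein genes 0 had a difference above 0 and 15 were lower at an unadjusted p under 0.05, with a median of -0.41. Without those 2 libraries 50 of the 78 were above 0, 1 was lower at that p and the median was 0.05. Of 74 mitochondrial ribosomal protein genes 70 were below 0, with a median of -0.43 that became 0.01. The medians were -0.43 for 37 genes of respiratory complex I, -0.45 for 13 of complexes II and III, -0.41 for 10 of complex IV and -0.49 for 15 of ATP synthase. Without Scr2 replicates 1 and 4 these medians were 0.03, 0.02, 0.12 and -0.04.

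RPS27, a protein of the small ribosomal subunit, stood between 5.92 and 6.89 in Myc2, and at 7.85, 6.68, 7.06 and 8.26 in Scr2. Scr2 replicates 1 and 4 were the highest, and the difference of -1.03 ± 0.32 was -0.44 without them. RPL21, of the large subunit, differed by -0.80 ± 0.23, or -0.44 after the length adjustment, where RPS27 was at -0.57. Both have many near-identical copies in the genome, so their counts are uncertain. The ATP synthase gene ATP5G1 (-0.77 ± 0.29) and the mitochondrial ribosomal gene MRPL47 (-0.76 ± 0.24) were at -0.31 and -0.32 without those 2 libraries.

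The same 2 libraries differed from the rest by transcript length. The genes were divided into 4 classes of equal size by length, and in the class of the shortest Scr2 replicates 1 and 4 lay 0.36 and 0.59 above the mean of the 9 libraries at the median. The other 7 libraries lay between -0.22 and 0.05. The median difference from the shortest to the longest class was -0.27, -0.11, 0.05 and 0.17, with 27.4%, 38.8%, 55.6% and 69.8% of genes above 0. Without Scr2 replicates 1 and 4 these medians were 0.01, -0.01, -0.02 and -0.08. The cytoplasmic ribosomal genes had a median transcript length of 750.5 bases, against 2771 for G2/M and 2481 for the hypoxia response. For the length adjustment, genes were placed in 50 finer length bins and the median deviation of each bin was subtracted in each library. The ribosomal median was then -0.06 and that of complex I -0.06. Under the same adjustment the G2/M median was -0.38.

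**Figure D4:**
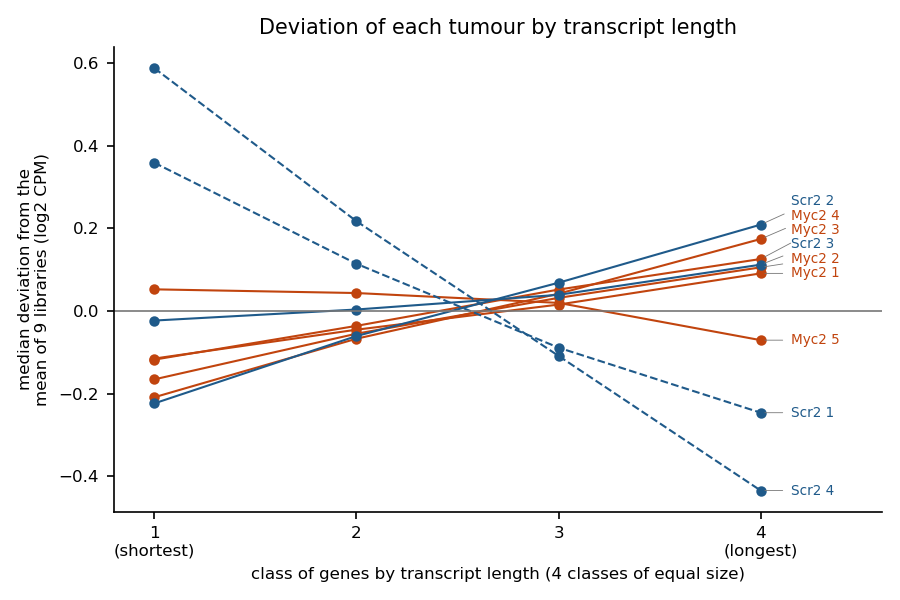
Median deviation of each tumour from the mean of the 9 libraries (log2 CPM), for genes in 4 classes of equal size by transcript length. Lines are libraries, Myc2 in red and Scr2 in blue, with Scr2 replicates 1 and 4 dashed. These 2 lie at 0.36 and 0.59 in the shortest class and are the lowest in the longest.

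Proteasome subunits kept a lower median under both treatments. Of 31 members 30 were below 0 and 16 were lower at an unadjusted p under 0.05, with a median of -0.43. It was -0.17 without Scr2 replicates 1 and 4, with 28 members below 0 and 1 lower at that p, and -0.24 after the length adjustment. PSMC3, an ATPase that feeds proteins into the proteasome, stood at 7.29, 7.23, 7.08, 7.27 and 7.52 in Myc2 and at 8.10, 7.61, 7.77 and 8.45 in Scr2. Its groups did not overlap, and the difference of -0.70 ± 0.19 was -0.41 without those libraries. PSMC1, another ATPase subunit, differed by -0.58 ± 0.20, or -0.24 without those libraries. The 13 subunits encoded by mitochondrial DNA had 11 members above 0 and a median of 0.27, which was -0.02 without Scr2 replicates 1 and 4. MT-ND4L, of complex I, differed by 0.95 ± 0.42 and then by 0.18, and MT-ATP8, of ATP synthase, by 0.75 ± 0.35 and then by 0.23. After the length adjustment the median of these subunits was 0.65 and MT-ATP8 was at 1.21.

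Collagens and the nuclear RNA NEAT1 were higher in Myc2, by less when Scr2 replicates 1 and 4 were left out. Of 18 collagen genes 14 were above 0 and 6 were higher at an unadjusted p under 0.05, with a median of 0.68 that became 0.22, with 1 higher, without Scr2 replicates 1 and 4. The fibrillar collagens COL27A1 and COL5A1 were higher by 1.68 ± 0.48 and 1.40 ± 0.55, or 0.76 and 0.28 without those libraries. NEAT1, a nuclear RNA that builds paraspeckles, stood at 10.02, 9.78, 10.12, 9.26 and 9.27 in Myc2 and at 7.16, 9.05, 8.49 and 4.84 in Scr2. The groups did not overlap, but Scr2 replicates 1 and 4 were far below the other libraries, and the difference of 2.30 ± 0.68 was 0.92 without them. MALAT1, another nuclear RNA, was higher by 1.60 ± 0.65 (0.36 without them), while the median of 12 nuclear long non-coding RNAs was -0.08 (0.21 without those libraries).

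**Figure D5:**
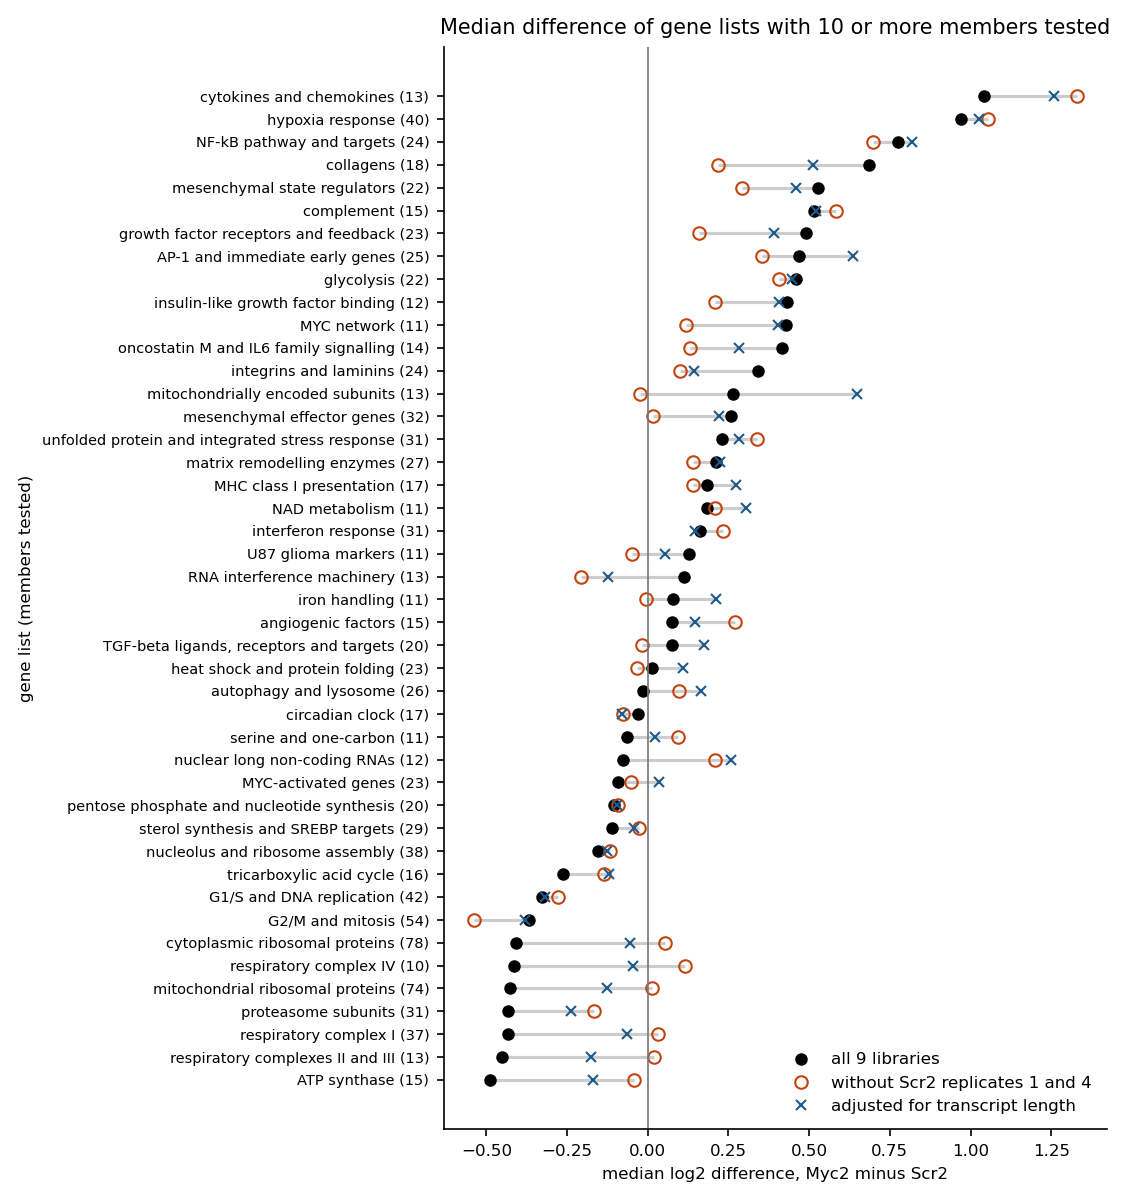
Median log2 difference, Myc2 minus Scr2, of gene lists with 10 or more tested members, over all 9 libraries (filled), without Scr2 replicates 1 and 4 (open) and after adjustment for transcript length (crosses). The hypoxia list has the medians 0.97, 1.05 and 1.03, while the cytoplasmic ribosomal list goes from -0.41 to 0.05 and -0.06.

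The labelled cell type was checked against markers. Of 15 markers of U87 11 were tested and 10 were above 0, with a median of 0.13. In the fit without Scr2 replicates 1 and 4, 4 were above 0 and 7 below, and the median was -0.05. The list had a mean level between 7.03 and 7.63 in Myc2 and between 6.72 and 7.49 in Scr2. The glial marker GFAP was low, between 0.34 and 1.50 in Myc2 and between 0.59 and 1.08 in Scr2. Other glial genes were not all low. The 6 tested astrocyte genes, GFAP among them, had a mean level between 3.12 and 4.72 in Myc2 and between 3.16 and 4.12 in Scr2. The 3 tested oligodendrocyte genes had one between 3.93 and 4.72 in Myc2 and between 4.41 and 4.90 in Scr2. Host cells can appear in this human table only through mouse reads counted to human genes. Of 10 lymphocyte genes 1 was tested, of 7 erythroid genes 0, of 17 microglial and macrophage genes 4 and of 12 oligodendrocyte genes 3. The mean level of the 4 microglial genes was between 3.53 and 4.37 in Myc2 and between 3.74 and 4.69 in Scr2, with a median difference of 0.02 (0.19 without Scr2 replicates 1 and 4).

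Of 12 endothelial genes 7 were tested and 6 were above 0, with a median of 0.47 (0.25 without Scr2 replicates 1 and 4) and a mean level between 1.37 and 2.81 in Myc2 and between 0.69 and 1.81 in Scr2. CDH5, the cadherin of endothelial junctions, stood at -0.01, 2.70, 2.33, -0.49 and 0.68 in Myc2 and at -1.50, 1.35, -3.11 and -1.68 in Scr2 (2.28 ± 0.91). Of 11 pericyte and smooth muscle genes 9 were tested, with 7 above 0 and a median of 0.19 (0.01 without those libraries). NOTCH3, a receptor of mural cells that glioma cells can also express, stood at 5.42, 5.05, 4.20, 3.85 and 4.70 in Myc2 and at 2.27, 3.59, 3.60 and 2.80 in Scr2. Its groups did not overlap, with a difference of 1.58 ± 0.37, or 1.05 without those libraries. Of 11 astrocyte genes 6 were tested, with 4 above 0 and a median of 0.30 (0.09 without those libraries), and SLC1A3, a glutamate transporter, differed by 1.03 ± 0.41 (0.50 without those libraries). The part of host cells in these differences was not tested.

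Beyond the lists, the genes with the smallest p on the higher side included ACAD11, a mitochondrial enzyme of fatty acid breakdown, at 6.09, 5.65, 5.48, 5.50 and 5.55 in Myc2 and 4.39, 4.85, 5.07 and 4.26 in Scr2. It was higher by 1.01 ± 0.21 without overlap. SLC25A37, which carries iron into mitochondria, stood between 6.03 and 7.01 in Myc2 and between 5.20 and 5.62 in Scr2 (0.96 ± 0.20). WSB1, a ubiquitin ligase subunit, stood between 6.83 and 7.34 against 5.63 and 6.67 (1.00 ± 0.22), and HOOK2, a microtubule linker, was higher by 1.05 ± 0.24 without overlap. WSB1 and HOOK2 were both at 0.63 without Scr2 replicates 1 and 4. NPIPP1 (0.82 ± 0.18) belongs to a family of near-identical copies, so its count is uncertain.

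On the lower side were UCP2, an inner mitochondrial membrane carrier, between 2.75 and 3.51 in Myc2 and between 3.81 and 4.48 in Scr2 (-0.91 ± 0.22). HMGB3, a chromatin protein of proliferating cells, stood between 5.30 and 6.19 against 6.25 and 6.92 (-0.86 ± 0.21). CBR3, a carbonyl reductase, stood between 4.36 and 5.01 against 5.21 and 6.52 (-1.11 ± 0.28), and was at -0.56 without Scr2 replicates 1 and 4. The genes known by the clone names RP5-940J5.9 and AC004381.6 differed by -1.42 ± 0.31 and -1.15 ± 0.26, the first by -0.83 without those libraries. For all 5 of these genes the groups did not overlap.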

How the data were processed

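The labels' protocols state an RNA integrity number of 7.2 or more and NextSeq sequencing for the 9 tumours. The builds hg19 and mm10 and the tools Picard, STAR 2.6.0b and bcl2fastq 2.20.0 were named, per the submitters' processing notes. Not given in the sources used here were the use of each build, the counting tool and the annotation. Values on a log2 scale per human gene, with 0 mouse identifiers, were deposited by the authors. Taken back from log2, they sum to nearly the same total, that of CPM, in each library and share 1 distribution, so they are quantile-normalized log2 CPM, and a change in total RNA cannot be seen in them. Library sizes were estimated from the spacing of the lowest values, which quantile normalization may have altered, so they are uncertain.

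Limma 3.58.1 in R 4.3.3 (trend and robust settings, two-sided) was fitted to the 14208 genes, with Benjamini-Hochberg adjustment at 0.05, and was tested on simulated data. Replicate numbers follow the order of accessions and pair nothing. The comparison, the 56 gene lists and the alternatives were chosen with earlier results of these data known. The genes named are the MYC network, the 12 with the smallest p in each direction at a mean of at least 3 log2 CPM, up to 4 members per list by p, a fixed panel, and others chosen after their values were seen, mainly for their role. One item of that panel and its list are not reported here. Transcript lengths, from a GENCODE annotation, were found for 13814 genes, and promoters are RefSeq windows of fixed length around each start. Alternatives were other filters, pseudocounts, re-centring on 21 reference genes, other limma settings, leaving out libraries and, chosen after seeing the data, an adjustment for transcript length.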

Additional observations from a re-analysis of the deposited data

Results flagged for a closer look

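In 14 of 248 groups of values examined (2 for each named gene), the highest or lowest library stood far from the others of its group by Dixon's criterion, which chance meets in about 1 in 20 groups. Of these 14, 8 fell on Myc2 replicate 3. It was lowest for ADM at 5.37 (the others 7.69 to 8.34), CA9 at 4.58 (7.60 to 8.55), NFIL3 at 4.54 (5.71 to 6.12), NRN1 at 4.40 (6.17 to 6.40) and FAM20C at 6.15 (7.62 to 8.15). It was highest for ASNS at 6.93 (4.03 to 4.42), SESN2 at 7.08 (4.19 to 4.99) and CHAC1 at 2.74 (-0.40 to 0.34), all log2 CPM. Several of these genes were chosen after their values were seen, so the number of flags on this library is a description. Myc2 replicate 1 was highest for ACAD11 at 6.09 (5.48 to 5.65) and lowest for CDC20 at 6.63 (7.12 to 7.28). Myc2 replicate 5 was lowest for ERN1 at 3.50 (4.21 to 4.32). Among the Scr2 libraries, BHLHE40 was highest in replicate 1 at 6.51 (5.75 to 5.87), SNAI2 lowest in replicate 3 at 5.33 (5.86 to 5.89) and NPIPP1 lowest in replicate 4 at 3.28 (3.68 to 3.74).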

How the results depend on the processing

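The count of 0 genes called by limma at an adjusted p under 0.05 changed in 2 alternatives, to 2 without Scr2 replicates 1 and 4 and to 9 without Myc2 replicate 3. The 1898 genes at an unadjusted p under 0.05 became 1098 with sample quality weights, 486 without Scr2 replicates 1 and 4, and between 710 and 3878 when 1 library was left out (Scr2 replicate 4 and Scr2 replicate 2). Re-centring on reference genes turned the split from 995 higher and 903 lower to 1908 and 298, or 86.5% higher. The offsets that it removed were 0.22 in Scr2 replicate 1 and 0.22 in Scr2 replicate 4, against -0.20 to 0.01 in the other libraries. The reference genes had a median difference of -0.16, which was -0.07 without those 2 libraries and -0.05 after the length adjustment. Re-centring is thus not independent of Scr2 replicates 1 and 4. Genes whose groups did not overlap, 199 higher and 229 lower, became 398 and 82 after re-centring, 474 and 630 without Scr2 replicates 1 and 4, and 218 to 676 and 268 to 884 with 1 library left out. Fewer libraries make non-overlap more frequent by construction. The MYC difference of 0.57 was 0.40 without Scr2 replicates 1 and 4 and between 0.41 and 0.70 when 1 library was left out (Scr2 replicates 4 and 3), where fewer arrangements are possible. No paired analysis was possible because the replicate numbers follow the order of accessions. Of 55 list medians, 28 moved by more than 1 SD of the group in some alternative.

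Among the genes named, 17 changed sign in some alternative, and the cause was not tested. After re-centring these were ASNS 0.042, CDKN1A 0.036, GAPDH 0.087, MLX 0.16, MXD4 0.14, RELA 0.19, SESN2 0.10 and TOP2A 0.12. Without Scr2 replicates 1 and 4 they were ASNS 0.50, CDKN1A 0.20, CHAC1 0.66, GFAP -0.064, MGA -0.052, MKI67 -0.78, MLX 0.12, MLXIP -0.014, NCL -0.075, NES -0.62, RELA 0.086 and SESN2 0.16. They were GAPDH 0.080, GFAP -0.048, MKI67 -0.35, MLX 0.039, NES -0.10 and RELA 0.059 with sample quality weights, and GAPDH 0.13, MKI67 -0.23 and NES -0.15 after the length adjustment. The ranges over fits that each leave out 1 library were ASNS -0.69 to 0.22, CHAC1 -1.23 to 0.015, GAPDH -0.26 to 0.0050, GFAP -0.18 to 0.11, LDHA -0.029 to 0.21, MKI67 -0.23 to 0.50, MLX -0.12 to 0.087, MXD4 -0.12 to 0.077, NES -0.23 to 0.41, RELA -0.057 to 0.047, SESN2 -0.61 to 0.12, TOP2A -0.27 to 0.25 and TRIB3 -0.37 to 0.53.

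The deposited values hold no counts, so the depth behind low genes such as STC2, TNFAIP3 and CDH5 is known only as an uncertain estimate. Quantile normalization hides a shift of most genes at once.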

Other observations

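NFIL3, a bZIP repressor linked to the circadian clock and to cytokine signalling, stood at 5.71, 5.80, 4.54, 6.12 and 5.84 log2 CPM in Myc2 and at 5.04, 3.76, 3.62 and 3.96 in Scr2, a difference of 1.51 ± 0.35. RORA, a nuclear receptor that activates clock genes, stood at 4.12, 3.27, 2.12, 3.74 and 2.42 against 2.52, 1.55, 1.62 and 1.02, a difference of 1.46 ± 0.45. For both genes the groups overlapped through Scr2 replicate 1. Over the 17 clock genes the median was -0.03, with 8 above 0, so most members did not share the direction of NFIL3 and RORA. The 23 heat shock and protein folding genes had 13 members above 0, 0 at an unadjusted p under 0.05 in limma in either direction, and a median of 0.01 (-0.03 without Scr2 replicates 1 and 4). The 31 interferon-response genes had 18 above 0, 2 higher and 0 lower at that p, and a median of 0.16.

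SESN2, a stress-induced inhibitor of mTORC1, stood at 4.19, 4.99, 7.08, 4.23 and 4.55 in Myc2 and at 5.62, 4.95, 4.75 and 5.07 in Scr2. CHAC1, which degrades glutathione, stood at -0.11, -0.04, 2.74, -0.40 and 0.34 against 3.08, -0.66, 0.35 and 1.78. As with ASNS and TRIB3, Myc2 replicate 3 and Scr2 replicate 1 were the highest of their groups. These tumours carry different labels, and both genes were chosen after their values were seen.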
